A study of Mus musculus with 4 samples.

Results

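The adhesion ligands for immune cells described here are 5 genes, Icam1, Vcam1, F11r, Alcam and L1cam, which were chosen by symbol and account for 5 of the 27179 genes in the table. They were measured by RNA-seq in MC38, a mouse colon carcinoma cell line that the labels give as wild type, as 1 library for each of 4 conditions. The conditions were an untreated control under normoxia, an untreated control under hypoxia, IFN-γ under normoxia and IFN-γ under hypoxia, and the study compared IFN-γ with control and hypoxia with normoxia. The methods give 20% oxygen for normoxia and 1.5% for hypoxia, and IFN-γ at 5 ng/mL for 24 h in most experiments, while the sample labels state neither dose nor time. A single biological sample stands for each condition, so differences between cultures of one condition were not measured.

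Leukocytes crawl along and hold on to other cells by integrins that bind membrane proteins of the immunoglobulin superfamily. ICAM-1 is the ligand of the integrins LFA-1 and Mac-1 and stabilises the contact between a T cell and its target cell, and its gene is a textbook target of both IFN-γ, through JAK-STAT signalling, and NF-κB. VCAM-1 binds the integrin VLA-4 and is best known from inflamed endothelium. JAM-A, the product of F11r, sits in the tight junctions of epithelia and can bind LFA-1. ALCAM binds CD6 on T cells and itself on neighbouring cells, and L1CAM, known from axons and from the invasive front of carcinomas, binds itself, RGD-binding integrins and neuropilin.

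The 4 libraries held between 34302971 and 34537939 counts, so depth differed by at most 1.007-fold, and the floor of 3 counts, at or under which a gene was not told from absent, was 0.0866 to 0.0876 CPM, the count relative to a library's TMM-scaled total. The labels of IFN-γ treatment were checked on Irf1, a transcription factor gene induced by IFN-γ in many cells, which had 3770 and 4422 counts in the control libraries against 20118 and 23759 with IFN-γ. Markers of other cell types ranged from absent to well counted. Of 14 leukocyte markers, 8 were at or under the floor in every library, and the T cell, B cell and macrophage genes Cd3g, Cd8a, Ms4a1, Itgam and Adgre1 were at 0 in all 4. The others were led by Itgal (358 to 556 counts), with Lyz2 at 69 to 96, Itgb2 at 61 to 80 and Ptprc at 2 to 12. Csf1r had 4 to 12 counts and Cd4 0 to 7, and all 14 markers summed to between 15.4 and 21.3 CPM. Of 10 endothelial markers 5 were at or under the floor, with Kdr, Emcn and Sox17 at 0. Egfl7 (671 to 841 counts) made up most of the sum of 22 to 26.7 CPM, and Cdh5 had 16 to 50 counts. Only 4 of the 10 were tested, and 0 were called for either stimulus. For comparison, 4.76% of all tested genes rose and 1.1% fell with IFN-γ, and 8.21% rose and 6.83% fell with hypoxia. Of 9 fibroblast markers 7 passed the filter for testing, with a sum of 105 to 140 CPM. Col3a1 (2233 to 3238 counts) and Pdgfra (1077 to 1341) led. Col1a2 had 76 to 105 counts, Pdgfrb 50 to 93, Dcn 52 to 72, Col1a1 29 to 66, Fap 14 to 34 and Lum 2 to 4, and Thy1 was at 0. Col3a1 was the 1 marker called, and it fell with IFN-γ (log2 change -0.39, edgeR adjusted p = 1.98e-07), as did 1.1% of all tested genes. The markers of colon epithelium, the tissue of origin on the label, were low or absent, with 6 of 12 at or under the floor. Cdh1 (E-cadherin), Cdx1, Cdx2 and Car1 were at 0 and Epcam had 2 counts in the normoxic control and 0 elsewhere, while Krt8 had 48 to 90 counts, Lgals4 13 to 27, Krt20 12 to 22 and Vil1 7 to 17, and all 12 summed to 3.41 to 3.93 CPM. In such bulk libraries, fewer cells of a type and less RNA per cell cannot be told apart.

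The promoter of Icam1 is shown because Icam1 stood furthest from the control among the ligands above the floor, and its upstream region holds letters that STAT and NF-κB factors are known to recognise. The 250 bases before its RefSeq start on GRCm38.p6 (mm10, the build named in the submitters' processing notes) lie on the plus strand at chr9:21015690-21015939. Capitals mark the matches.
Icam1: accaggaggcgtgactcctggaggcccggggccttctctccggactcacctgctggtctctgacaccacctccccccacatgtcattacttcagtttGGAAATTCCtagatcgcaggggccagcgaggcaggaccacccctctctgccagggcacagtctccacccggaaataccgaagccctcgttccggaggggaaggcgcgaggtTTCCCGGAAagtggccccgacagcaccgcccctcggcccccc
The match nearer to the start, TTCCCGGAA, fits the interferon-γ-activated (GAS) motif TTCNNNGAA and lies 42 to 34 bases before the start. The other, GGAAATTCC, fits the palindromic NF-κB core GGAANTTCC and lies 153 to 145 bases before it. Both strands were searched, and these motifs do not overlap here. Of 32851 promoter windows of the same length, 7.02% held the GAS letters and 0.813% the NF-κB core. The ISRE letters GAAANNGAA (7.13% of windows), the NF-κB consensus (3.9%) and the hypoxia response core in the form ACGTG (16.6%) had no match in this window. The GCGTG form of that core was not searched, and its letters do occur in the printed window. The share of windows with GCGTG was not counted. Promoters were found for 4 of the 5 genes, Vcam1 being the other, and the windows of F11r, Alcam and L1cam held none of the motifs searched. The GCGTG letters occur in these windows too, as given or on the opposite strand. A match is a run of letters and not a measured binding site.

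Each of the genes is protein coding in RefSeq GRCm38.p6. Icam1 (gene ID 15894) spans chr9:21015940-21028814 on the plus strand and is followed by its family members Icam4, 617 bases downstream, and Icam5, 1441 bases beyond the end of Icam4. Vcam1 (22329) spans chr3:116110020-116129688 on the minus strand, F11r (16456) chr1:171437561-171464593 on the plus strand, Alcam (11658) chr16:52248996-52453081 on the minus strand and L1cam (16728) chrX:73853778-73880838 on the minus strand. Of the 31-base words in the annotated Icam1 transcripts, 14.8% also occur in another gene on one strand or the other, most of them in the antisense gene Gm47079 (11.2%) that overlaps the 3′ side of Icam1. For the other 4 genes the share was between 0.168% and 2.6%. The libraries were strand-specific, but whether the counting used strand is not given in the sources used here, so reads of Icam1 and Gm47079 may not have been told apart. Gm47079 (chr9:21028307-21032357) also spans all of Icam4 and the start of Icam5, so the same may hold for these genes.

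The adhesion ligands covered a wide range of levels, and none was among the abundant adhesion genes of MC38 cells. On a scale per exonic length (RPKM, from TMM-scaled CPM and GENCODE exon lengths), Vcam1 was highest at 0.889 to 1.03 over the 4 libraries, followed by Alcam at 0.496 to 0.597. The ranges of these genes did not overlap. Icam1 at 0.053 to 0.161 RPKM and F11r at 0.0869 to 0.11 RPKM overlapped each other, and L1cam was lowest, at 0 to 0.00795 RPKM. Among 37 adhesion genes, made up of the 5 ligands and a list of 32 other immunoglobulin family and related adhesion molecules, Vcam1 ranked 17, Alcam 19, Icam1 25, F11r 26 and L1cam 34 by mean RPKM. The hyaluronan receptor Cd44 led this order with a mean of 56.4 RPKM, ahead of the sialomucin Cd34 (50.3), the poliovirus receptor Pvr (12.1), which is the ligand of DNAM-1 and TIGIT, and Cd47 (9.15), the "do not eat me" signal. Icam4, the next gene downstream of Icam1, had a mean of 6.13 RPKM and Icam5 a mean of 2.07 RPKM, both above Icam1 at 0.113 RPKM.

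**Figure D1:**
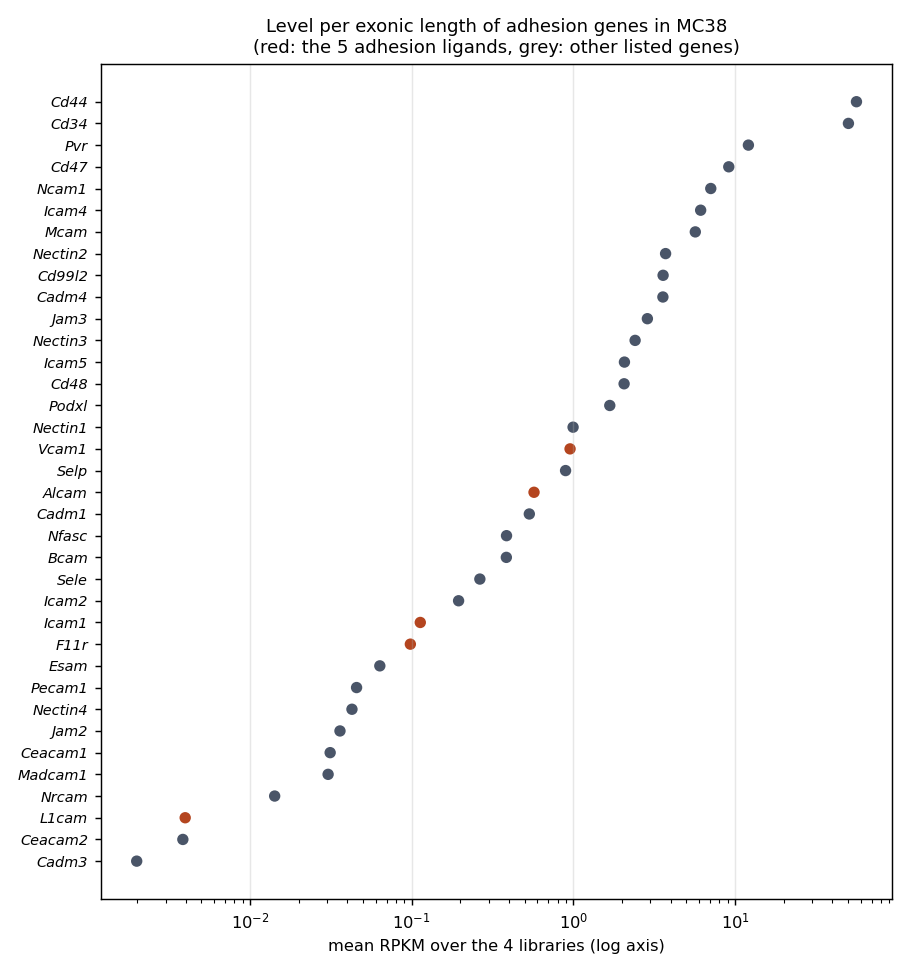
Mean RPKM over the 4 libraries (log axis) of the adhesion genes, with the 5 ligands in red and the other listed genes in grey; Chl1, at 0 in every library, has no place on a log axis. Vcam1 (0.954) and Alcam (0.571) sit in the middle of the order, Icam1 (0.113) and F11r (0.0981) side by side in its lower part, and L1cam (0.00397) near its end.

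Icam1 was a low-count gene that stood higher with IFN-γ under both oxygen conditions, by a margin that did not pass the test across genes. It had 8 counts in the normoxic control, 12 in the hypoxic control, 24 with IFN-γ under normoxic conditions and 24 with IFN-γ under hypoxic conditions, or 0.231, 0.347, 0.7 and 0.701 CPM. Both IFN-γ libraries were above both control libraries. The exact 95% Poisson intervals were 3.45 to 15.8 counts in the normoxic control, 6.2 to 21 in the hypoxic control and 15.4 to 35.7 in each IFN-γ library, so the interval of the normoxic control overlapped those of the IFN-γ libraries at its very end and the interval of the hypoxic control overlapped them further. These and all other intervals on counts cover counting error only, and reads without molecular identifiers are not independent molecules.

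The change of Icam1 with IFN-γ was 2.91-fold under normoxic conditions, with an exact conditional 95% interval of the log2 ratio from 0.40 to 2.96 around 1.54. Under hypoxic conditions it was 1.98-fold, with the log2 ratio at 0.98 and an interval from -0.04 to 2.15. Adding 5 counts instead of 0.5 to each library before the ratio gave log2 ratios of 1.17 and 0.78. Small counts in this table were more often even than odd: of the values from 1 to 10, between 64% and 66.3% were even in each library, against 49.8% to 50.6% of the values above 1000. With counts halved, as they would be if both reads of a fragment were counted, the interval of the Icam1 ratio under normoxic conditions widened to -0.12 to 3.69 and that under hypoxic conditions to -0.51 to 2.71, both of which include 0. The cause of the even values was not tested.

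In the additive model over all 4 libraries, edgeR's quasi-likelihood test gave Icam1 a log2 change of 1.27 with IFN-γ (SE 0.537, unadjusted p = 0.0178, adjusted p = 0.193). The change was the 254th in size among the 13580 tested genes, yet it did not pass the adjusted threshold of 0.05. Icam1 met the filter on low counts through its IFN-γ libraries (24 counts each) and the hypoxic control (12). The normoxic control, with 8 counts, was under the minimum of 10. Its place among the tested genes thus rests in part on the counts that give the change, so the rank is no separate support. In the 5 alternative fits that could hold Icam1 the log2 change was 1.26 to 1.30 with adjusted p from 0.221 to 1, the highest in DESeq2's Wald test, where the unadjusted p was 0.174. A mean of 17 counts put Icam1 above only 6.27% of the tested genes. Among the 1366 tested genes with a mean of 10 to 30 counts, 45 (3.29%) were raised by IFN-γ past the threshold, and the smallest log2 change among these was 1.30, just above that of Icam1, with a median of 2.68. A level at least 1.5-fold higher with IFN-γ in both pairs, which Icam1 showed, was found in 420 of all tested genes (3.09%) and in 113 of the 1366 genes of that count range (8.27%).

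With hypoxia, Icam1 did not differ beyond its counting error in either pair. Without IFN-γ the hypoxic library stood 1.47-fold above the normoxic one, with a log2 ratio of 0.56 and an interval from -0.82 to 2.08. With IFN-γ both libraries had 24 counts, and the log2 ratio was 0.00 with an interval from -0.88 to 0.88. The fitted log2 change with hypoxia was 0.21 (SE 0.527, edgeR adjusted p = 0.854). The library with both stimuli stood 2.91-fold above the untreated normoxic control, the same value as with IFN-γ alone, with a log2 interval from 0.40 to 2.97. Subtracting the log2 ratio with IFN-γ in normoxia from that in hypoxia gave -0.56 for Icam1, with a counting interval of -2.08 to 0.97 that includes 0.

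**Figure D2:**
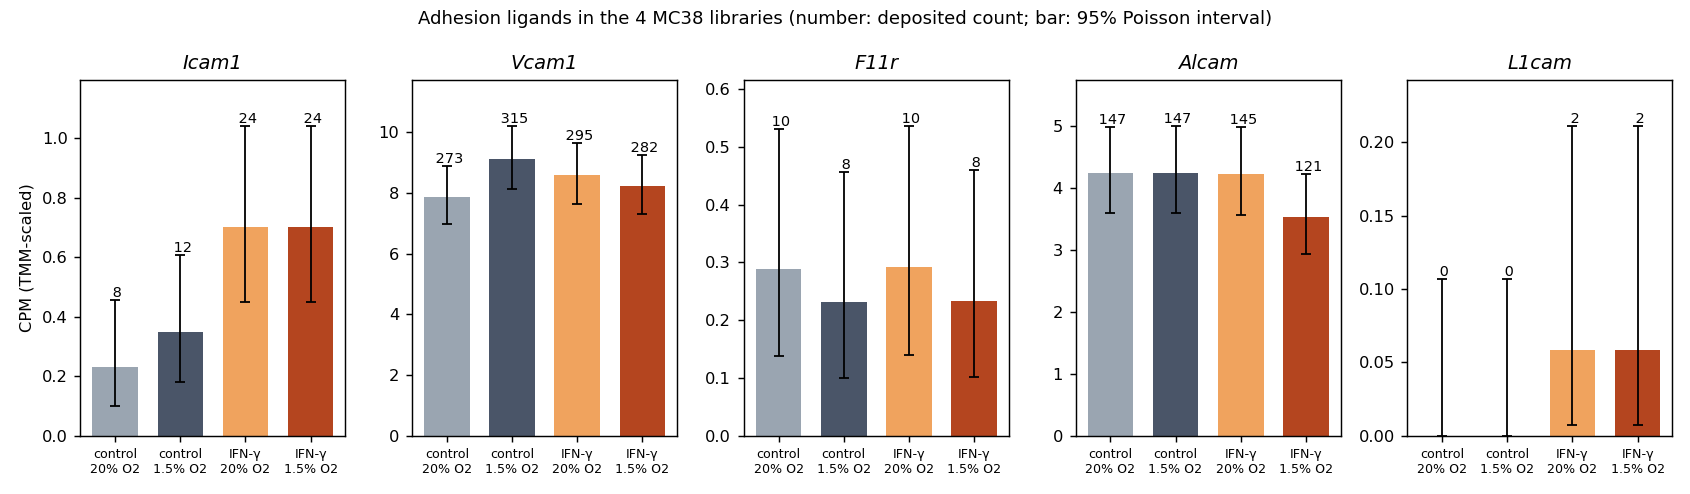
TMM-scaled CPM of each adhesion ligand in each library, with the deposited count printed above each bar and exact 95% Poisson intervals that cover counting error only; each panel has its own axis from 0. Icam1 is the one gene of the 5 counted above the floor with both IFN-γ libraries (24 counts each) above both controls (8 and 12), while the intervals of Vcam1, F11r and Alcam overlap across all 4 libraries.

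Vcam1, which shares with ICAM-1 its role in holding leukocytes on inflamed endothelium, stayed within 1.16-fold in every comparison of 2 libraries that differed by 1 stimulus. It had 273 counts in the normoxic control, 315 in the hypoxic control, 295 with IFN-γ under normoxic and 282 with IFN-γ under hypoxic conditions, or 7.88, 9.11, 8.6 and 8.23 CPM. The hypoxic control was highest and the normoxic control lowest, and the Poisson intervals of all 4 libraries overlapped. IFN-γ gave a log2 ratio of 0.13 (95% interval -0.12 to 0.37) under normoxic conditions and -0.15 (-0.38 to 0.09) under hypoxic conditions. Hypoxia gave 0.21 (-0.03 to 0.45) without IFN-γ and -0.06 (-0.30 to 0.18) with it, and both stimuli together gave 0.06 (-0.18 to 0.31). The fitted log2 changes were -0.01 with IFN-γ (SE 0.133, edgeR adjusted p = 0.993) and 0.07 with hypoxia (SE 0.133, edgeR adjusted p = 0.786).

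Alcam, the ligand of CD6, had the same level in 3 libraries and a slightly lower one in the fourth. The counts were 147 in the normoxic control, 147 in the hypoxic control, 145 with IFN-γ under normoxic and 121 with IFN-γ under hypoxic conditions, or 4.25, 4.25, 4.23 and 3.53 CPM. The library with both stimuli was the lowest, and its interval of 100 to 145 counts overlapped the others. IFN-γ gave a log2 ratio of -0.01 (-0.35 to 0.34) under normoxic and -0.27 (-0.63 to 0.09) under hypoxic conditions. Hypoxia gave 0.00 (-0.34 to 0.34) without IFN-γ and -0.26 (-0.62 to 0.10) with it, and the log2 ratio for both stimuli together was -0.26 (-0.62 to 0.09). The fitted log2 change was -0.13 for either stimulus (SE 0.185, edgeR adjusted p = 0.889 for IFN-γ and 0.727 for hypoxia).

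F11r and L1cam were too low for the test across genes. F11r, which encodes JAM-A, had 10, 8, 10 and 8 counts in the normoxic control, the hypoxic control, IFN-γ under normoxia and IFN-γ under hypoxia, or 0.231 to 0.292 CPM. The counts with and without IFN-γ were equal within each oxygen condition, and both hypoxic libraries were lower by 2 counts. The log2 ratio with IFN-γ was 0.01 under both conditions, with intervals of -1.41 to 1.43 under normoxic and -1.60 to 1.62 under hypoxic conditions, and with hypoxia it was -0.30 in both pairs (-1.86 to 1.17). These intervals leave room for a change of more than 2-fold in either direction, so a change of F11r within them was not detectable at this depth. In the fit without a filter on low counts F11r had log2 changes of 0.02 with IFN-γ (edgeR adjusted p = 0.999) and -0.32 with hypoxia (edgeR adjusted p = 0.884). L1cam had 0 counts in both control libraries and 2 in each IFN-γ library. All 4 values are at or under the floor of 3 counts, and a count of 0 allows up to 3.69 counts, or 0.107 CPM, by the exact Poisson limit. No fold is given for L1cam.

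Of the 5 ligands 3 were tested, and 0 of the 3 passed the edgeR threshold for IFN-γ or for hypoxia in either direction. At an unadjusted p under 0.05 the count was 1 for IFN-γ (Icam1) and 0 for hypoxia, and none of the ligands was called in any alternative fit that gave it an adjusted p. F11r and L1cam had a value in 1 of the 6 fits and Icam1 in 5, and DESeq2's Wald test gave no adjusted p for Icam1 and Alcam with hypoxia. Over all 13580 tested genes, 4.76% were raised and 1.1% lowered by IFN-γ, and 8.21% were raised and 6.83% lowered by hypoxia. The median fitted log2 change of the 3 genes was -0.01 with IFN-γ and 0.07 with hypoxia, beside -0.01 and 0.00 over all tested genes. In single pairs of libraries, 1 of the 4 ligands with a ratio (Icam1) was past 1.5-fold with IFN-γ under normoxic conditions, with IFN-γ under hypoxic conditions and with both stimuli, where 9.65%, 8.95% and 11.7% of the tested genes were past it in either direction. None of the 4 was past it in the hypoxia pairs without and with IFN-γ, where 9.35% and 9.46% of genes were. The spread in this model is each gene's departure from additivity, with 1 residual degree of freedom per gene pooled over genes, and it holds any interaction of the stimuli as well as differences between cultures.

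**Figure D3:**
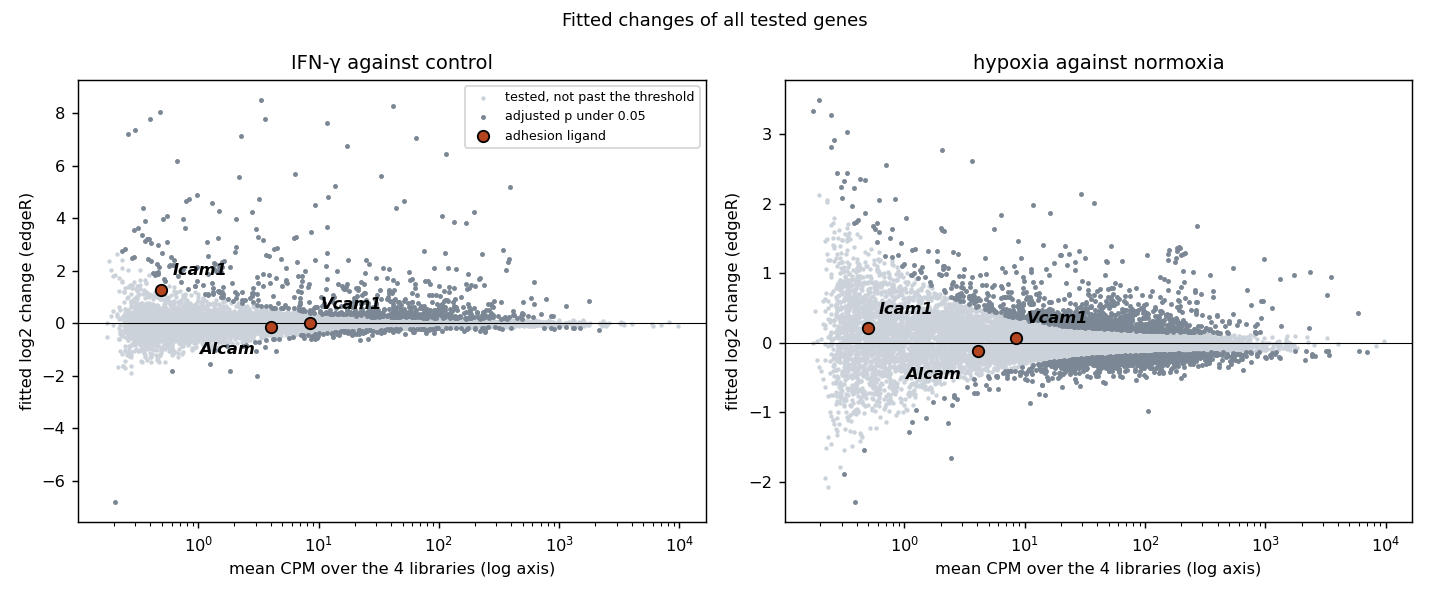
Fitted log2 change against mean CPM (log axis) for all 13580 tested genes with IFN-γ (left) and with hypoxia (right), with genes past the adjusted threshold in dark grey and the tested adhesion ligands in red. Icam1, at the low-count end on the left, lies at 1.27, just below the raised dark points of similar level, and Vcam1 and Alcam lie close to 0 in both panels.

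Most genes of IFN-γ signalling, the pathway known to act on Icam1, rose with IFN-γ. Over all tested genes 4.76% rose and 1.1% fell with IFN-γ. Of 10 genes of IFN-γ signalling, all tested, 7 rose and 1 fell with IFN-γ, and the median log2 change was 0.79. The largest changes were those of the transcription factor Irf1 (2.43, SE 0.0548), the feedback inhibitors Socs1 (1.5) and Socs3 (0.94) and the transcription factor Irf9 (0.82), each past the edgeR threshold in the main test and in all 6 alternative fits. The gene that fell was the receptor chain Ifngr1, at -0.25 (edgeR adjusted p = 0.0308), named here after its value was seen, and it was past the threshold in 1 of 6 alternative fits. With hypoxia 4 of the 10 rose, namely Jak2 (0.30), Jak1 (0.29), Irf1 (0.24) and Ifngr1 (0.24), with a median of 0.05 for the list. Jak1 and Irf1 each passed with hypoxia in 5 of 6 alternative fits, Jak2 in 4 and Ifngr1 in 3. Over all tested genes 8.21% rose and 6.83% fell with hypoxia.

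Of 17 genes of NF-κB signalling 14 were tested, and 1 rose with IFN-γ, beside 4.76% raised and 1.1% lowered over all tested genes. The gene that rose was the TNF receptor Tnfrsf1a (log2 change 0.26, edgeR adjusted p = 0.00116, past the threshold in 4 of 6 alternative fits). The median was -0.02 for the list. At an unadjusted p under 0.05 in edgeR the count was 5 of 14 for IFN-γ and 3 of 14 for hypoxia, beside 1897 and 3595 of all 13580 tested genes. Among the cytokines that activate this arm, Tnf had 0, 0, 2 and 4 counts and Il1b 0, 0, 0 and 2, near or under the floor, while Il1a had 21, 6, 7 and 5 counts, above the floor in every library and highest in the normoxic control. With hypoxia 2 of the 14 rose and 1 fell, beside 8.21% raised and 6.83% lowered over all tested genes. The feedback inhibitor Tnfaip3 had 371 and 361 counts under normoxic against 727 and 712 under hypoxic conditions, a log2 change of 0.98 (SE 0.104, edgeR adjusted p = 8.26e-19), and Ikbkg, the regulatory subunit of the IκB kinase, rose by 0.30. Tnfaip3 passed in all 6 alternative fits and Ikbkg in 5. Nfkbib, an inhibitor of the factor, fell by 0.20 with an adjusted p of 0.0491 in edgeR, which passed in none of the 6 alternative fits.

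**Figure D4:**
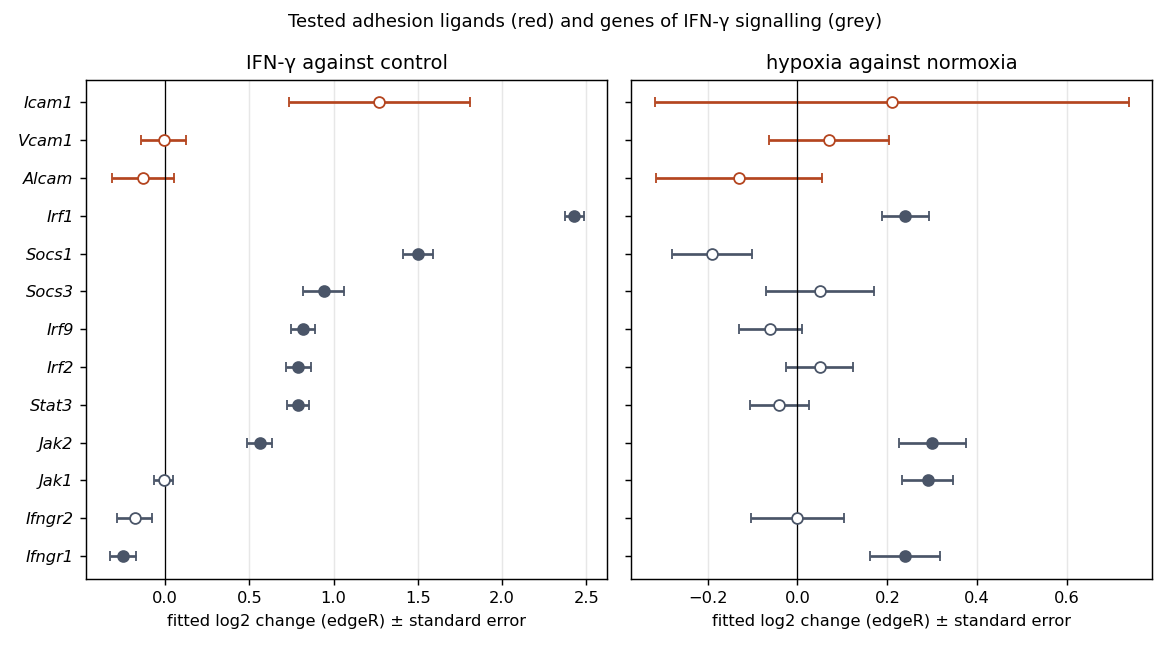
Fitted log2 changes ± standard error (edgeR, additive model over 4 libraries) with IFN-γ (left) and hypoxia (right) for the 3 tested adhesion ligands in red and 10 genes of IFN-γ signalling in grey; filled points passed the adjusted threshold of 0.05, and the axes of the panels differ. Irf1 (2.43) stands furthest to the right with IFN-γ, Icam1 (1.27) has the widest error of the genes shown, and Vcam1 and Alcam lie within 1 standard error of 0.

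The other adhesion genes changed in both directions. Of the 32 listed, 23 were tested, and with IFN-γ 1 rose and 4 fell, with a median log2 change of -0.13 and 10 of the 23 at an unadjusted p under 0.05 in edgeR. Over all 13580 tested genes 4.76% rose and 1.1% fell with IFN-γ, and 1897 had an unadjusted p under 0.05 in edgeR. Cd47 rose (0.36, edgeR adjusted p = 1.12e-05), while the melanoma adhesion molecule Mcam (-0.47), the nectin Nectin2 (-0.41), Cd99l2 (-0.32) and the neural adhesion molecule Ncam1 (-0.27) fell. With hypoxia 4 of the 23 rose and 2 fell, with a median of 0.06 and 8 of the 23 at an unadjusted p under 0.05 in edgeR. The shares over all tested genes were 8.21% raised and 6.83% lowered, with 3595 at an unadjusted p under 0.05 in edgeR. Pvr had 2005 and 1780 counts under normoxic against 3181 and 3212 under hypoxic conditions, a log2 change of 0.76 (SE 0.0675, edgeR adjusted p = 5.35e-27) that all 6 alternative fits called. Ncam1 (0.37), Cd99l2 (0.27) and Cd47 (0.26) rose, and the junctional molecule Jam3 and the sialomucin Podxl each fell by 0.42. Ncam1 under IFN-γ, and Cd99l2 and Cd47 under hypoxia, were named after their values were seen. Over the 6 alternative fits, Cd47 passed with IFN-γ in 5, Mcam and Nectin2 in 4 and Ncam1 in 3, and with hypoxia Ncam1 passed in 5 and Cd47, Jam3 and Podxl in 4. Cd99l2 passed in 1 of 6 for either stimulus.

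The neighbours of Icam1 on chromosome 9 were not higher in both IFN-γ libraries than in both controls. Icam4, a red cell and macrophage ligand of integrins, had 254, 255, 241 and 187 counts in the order normoxic control, hypoxic control, IFN-γ normoxia and IFN-γ hypoxia, with a fitted log2 change of -0.24 with IFN-γ (edgeR adjusted p = 0.512). Icam5, which encodes the neuronal telencephalin, had 217, 195, 223 and 207 counts and a log2 change of 0.08 (edgeR adjusted p = 0.933). Icam2, another LFA-1 ligand that lies elsewhere in the genome, had 13, 7, 20 and 11 counts and a log2 change of 0.64 (SE 0.597, edgeR adjusted p = 0.771). The counts of Icam4 and Icam5 may, like those of Icam1, hold reads of the antisense gene Gm47079. The difference between the changes of Icam1 and those of its relatives was not tested.

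Counter-receptors of the ligands were also read out, since a ligand can meet its integrin on a neighbouring cell. Of 16 such genes 10 were tested, and with IFN-γ 1 rose, the laminin receptor chain Itga6 (log2 change 0.27, edgeR adjusted p = 0.00845), while 4 rose with hypoxia and none fell in either test. Over all tested genes 4.76% rose and 1.1% fell with IFN-γ, and 8.21% rose and 6.83% fell with hypoxia. Itgal, the α chain of LFA-1, had 413 and 358 counts under normoxic against 556 and 482 under hypoxic conditions, a log2 change of 0.43 (SE 0.111, edgeR adjusted p = 0.00161). Its partner Itgb2, without which LFA-1 is not assembled, had 80, 67, 69 and 61 counts, and the leukocyte marker Ptprc (CD45) had 11, 7, 12 and 2. The 14 leukocyte markers, Itgal among them, summed to 17.1 and 15.4 CPM under normoxic against 21.3 and 18.5 CPM under hypoxic conditions, and the part of leukocyte RNA in this was not tested. The αv chain Itgav (0.30), Nrp1 (0.29) and the β1 chain Itgb1 (0.15) also rose with hypoxia. The calls of Itgal, Itga6, Nrp1 and Itgb1 each passed in 4 of 6 alternative fits and that of Itgav in 5. Mac-1's α chain Itgam was at 0 in every library, Itga4, the α chain of VLA-4, had 0, 2, 2 and 0 counts, and Cd6 had 12, 4, 2 and 0.

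Genes for the cytoplasmic partners and for the proteases that shed these ligands were mostly not past the threshold. All 13 partners were tested, 0 were called for IFN-γ (also 0 at an unadjusted p under 0.05 in edgeR), and 1 rose and 1 fell with hypoxia (4 at an unadjusted p under 0.05). Over all 13580 tested genes 4.76% rose and 1.1% fell with IFN-γ, and 8.21% rose and 6.83% fell with hypoxia. An unadjusted p under 0.05 in edgeR was found for 1897 of them with IFN-γ and 3595 with hypoxia. The scaffold gene Tjp1 (ZO-1), whose product anchors JAM-A in tight junctions, rose by 0.32 on the log2 scale, and Ank2, of the ankyrins that hold L1CAM, fell by 0.23. Tjp1 passed in 5 of 6 alternative fits and Ank2 in 3. Ezrin and moesin, which link ICAM-1 and VCAM-1 to actin, had fitted IFN-γ log2 changes of -0.01 (Ezr) and 0.03 (Msn), neither past the threshold. Of 9 sheddases 8 were tested, 0 were called for IFN-γ (0 at an unadjusted p under 0.05), and Adam9 rose with hypoxia (0.16, edgeR adjusted p = 0.0473, past the threshold in 1 of 6 alternative fits), where 4 of the 8 had an unadjusted p under 0.05. Adam10 and Adam17, known to shed adhesion molecules such as L1CAM and VCAM-1, had 2512 to 2830 and 3789 to 4290 counts.

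The genes whose pattern was most like that of a ligand were sought among about 10695 well-counted genes (mean of 100 counts or more), by the distance between the 3 log2 ratios of the stimulated libraries to the normoxic control. For Icam1 these were the complement protease gene C1s1 (distance 0.189, with 286, 372, 797 and 802 counts), Tvp23a (0.221, with 78, 112, 261 and 236 counts) and the interferon-induced antiviral gene Rsad2 (0.247, with 2929, 3869, 7542 and 9068 counts). All were higher in both IFN-γ libraries than in both controls, which follows from their choice by likeness to Icam1. For Vcam1 they were the gene with ID 330544, Tmem9b and Gosr2 at distances of 0.0106 to 0.0128, for F11r Ddx31, Eme2 and Mrpl16 at 0.0231 to 0.0273, and for Alcam Ppdpf, Mmgt2 and Tefm at 0.0185 to 0.0229. These likenesses rest on 4 libraries, and for F11r and Icam1 on few counts. No gene was sought for L1cam, which was at the floor.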

How the data were processed

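MC38 cells were sequenced as strand-specific poly-A libraries with paired 100-base reads. Per the labels, the submitters' processing notes name featureCounts and mm10, and the methods name HISAT2. The authors deposited raw counts per NCBI gene ID in 1 table, with no normalization. No version of these tools is given in the sources used here, nor whether reads or fragments were counted.

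Symbols came from RefSeq GRCm38.p6 and matched 25275 IDs. The 13580 genes that passed edgeR's filter (minimum 10 counts) were tested with edgeR 4.0.16 (R 4.3.3, quasi-likelihood, TMM, oxygen and IFN-γ as additive terms, Benjamini-Hochberg adjustment at 0.05), checked on simulated data. Pair ratios are of TMM-scaled CPM with 0.5 counts added. Exon lengths and shared words came from GENCODE M21. The members and gene lists were chosen with earlier results of these data known. All 5 ligands were named, with up to 4 called genes of each list and stimulus by size of change, listed markers at or under the floor, and the 3 most alike genes. The alternatives were DESeq2 size factors, DESeq2 1.42.0's Wald test, no filter, at least 10 counts in every library, 2 libraries against 2, an added log2 threshold of 1, 5 counts added, total counts and, chosen after seeing the data, counts halved. Protein sequences were not used here. Some genes of the pathways described are not reported here.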

Additional observations from a re-analysis of the deposited data

Results flagged for a closer look

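For Vcam1 the 2 pairs of libraries moved in opposite directions with IFN-γ, with log2 ratios of 0.13 under normoxic and -0.15 under hypoxic conditions, a difference of -0.27. The same 4 counts give opposite directions with hypoxia, at 0.21 without and -0.06 with IFN-γ, again a difference of -0.27. The difference was not tested, since no condition had a replicate. Its counting interval was -0.60 to 0.06, and -0.74 to 0.20 with counts halved, so it was within counting error.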

How the results depend on the processing

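The count of called ligands was 0 under every alternative for both stimuli, over the ligands each could test. With the added log2 threshold of 1 this was fixed in advance, since that setting only narrows the main calls. The counts of ligands past 1.5-fold in a pair were equal with 5 counts added, total counts and halved counts. Under these the Icam1 difference between the IFN-γ log2 ratios was -0.54 to -0.39, against -0.56. Icam1 could not be fitted with at least 10 counts in every library, since the normoxic control had 8. The count of genes called over the whole table moved more. For IFN-γ it was 796 in the main test, 369 with DESeq2's Wald test, 242 with 2 libraries against 2 and 246 with an added log2 threshold of 1. For hypoxia it was 2042, against 576, 176 and 115. Of the named list genes, 66 calls were lost over the alternatives, 28 of them with 2 libraries against 2 and 19 with the Wald test. The cause was not tested. No ligand shared 20% of its 31-base words with another gene, so none was left out for that. The main test compares IFN-γ within each oxygen condition, and 2 libraries against 2 is the same comparison without that term. No paired analysis was possible by replicate number, because each condition has 1 library. Depth limits F11r, L1cam and Icam1, whose intervals span more than 2-fold.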
